A study of Mus musculus with 8 samples.

Results

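The cluster of miR-322, miR-503, miR-351, miR-542 and miR-450 is a group of miRNA genes that lie close together on the same strand of the mouse X chromosome. Its 9 mature miRNAs listed here, of the 1881 mouse miRNAs on the array, were chosen by name, not by a cut on measured values. Earlier results of these data were known when they were chosen. The 9 are mmu-miR-322-5p, mmu-miR-322-3p, mmu-miR-503-5p, mmu-miR-503-3p, mmu-miR-351-5p, mmu-miR-542-3p, mmu-miR-542-5p, mmu-miR-450a-5p and mmu-miR-450b-5p, written below without the species prefix. Total RNA from whole kidney was hybridised to 8 single-colour Agilent arrays, each carrying a different sample. By the labels, 4 of the samples were from db/db mice, homozygous for the Lepr db allele (+Leprdb/+Leprdb), and 4 from controls, given as m+/m+ in the strain field. All were males on the C57BLKS/J Iar background and were 28 weeks old. The Cy3 labelling reaction took 100 ng of RNA per sample. The titles call the controls dbm and the source field calls them m/m, so whether they carried a db allele was not settled. Nothing in the labels ties each sample to a separate animal, so p-values here reflect only how far these samples spread, which may be technical.

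The db allele removes the long, signalling form of the leptin receptor, and mice homozygous for it overeat and become obese and diabetic, with kidney disease at older ages. miRNAs are short RNAs that pair with messenger RNAs, mainly through a seed at their 5′ end, and lower the output of those messengers. miRNAs of a genomic cluster are often cut from a shared primary transcript, while the level of each mature arm also depends on its own processing and stability. miR-322, the rodent counterpart of human miR-424, and miR-503 are known from cultured cells as brakes on cell division that target Cdc25a and cyclins, and miR-503 has been studied in the endothelium of diabetic mice.

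In the mouse annotation of RefSeq (GRCm38.p6), 7 hairpins of the cluster lie over 6353 bases, all on the minus strand. In the direction of transcription the order is Mir322, Mir503, Mir351, Mir542, Mir450-2, Mir450-1 and Mir450b. Mir322 and Mir503 are separated by 200 bases and Mir503 and Mir351 by 630, and these 3 hairpins lie within the long noncoding RNA gene C430049B03Rik. A gap of 3767 bases separates Mir351 from Mir542, and 1035 bases lie between Mir542 and Mir450-2. The last 3 hairpins are separated by 54 and 75 bases. miR-450a-5p is cut from both Mir450-1 and Mir450-2, so its signal is a sum over 2 hairpins. In the array's own annotation (mm9), probes for miR-322-5p map to chromosome X, 50407455 to 50407475, those for miR-503-5p to 50407174 to 50407188 and those for miR-351-5p to 50406456 to 50406470. Probes for miR-450a-5p map to 2 places, 50401350 to 50401369 and 50401485 to 50401504. The same annotation gives no position for the probes of miR-542-3p, miR-542-5p and miR-450b-5p.

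The mature sequences of all 9 members were found in RefSeq's table for GRCm38.p6 and are shown 5′ to 3′, with bases 2 to 8, the seed, in capitals. They are shown because the array reads each by its bases, and because the seeds divide the cluster into unrelated groups.
miR-322-5p: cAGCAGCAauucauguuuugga
miR-503-5p: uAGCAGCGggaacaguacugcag
miR-351-5p: uCCCUGAGgagcccuuugagccug
miR-542-3p: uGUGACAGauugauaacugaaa
miR-542-5p: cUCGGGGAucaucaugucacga
miR-450a-5p: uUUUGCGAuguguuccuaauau
miR-450b-5p: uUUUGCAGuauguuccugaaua
miR-322-3p: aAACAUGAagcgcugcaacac
miR-503-3p: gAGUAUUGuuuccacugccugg
The 9 members carried 9 different seeds. The seed of miR-322-5p was shared by 9 other mature miRNAs among the 1679 in the table, which form the miR-15/16 family. miR-503-5p shared its 7-base seed with no other entry, while its bases 2 to 7 were found in 10 others. The seed of miR-351-5p was that of miR-125, and 4 other entries carried it. The relatives outside the cluster that the results below return to are these.
miR-16-5p: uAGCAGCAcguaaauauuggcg
miR-15b-5p: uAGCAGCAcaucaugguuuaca
miR-125b-5p: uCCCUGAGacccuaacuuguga

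Of all miRNAs on the array, 390 gave a detection call on some array and 269 did so on all 8. Between 305 and 352 were detected per control array and between 289 and 358 per db/db array. Array by array, correlations of log2 signals were at least 0.9895 within a group and at least 0.9636 between groups (across miRNAs, which are not independent replicates). All arrays lay on 1 slide, with the controls in row 1 and the db/db samples in row 2, so genotype and the row of the slide cannot be told apart. Signals below are array intensity values brought to the same 75th percentile of those 269 miRNAs on every array. Scaled signals under 2.80 were raised to it, a floor of 1.48 on the log2 scale. The floor is the median, over the arrays, of the dimmest signal called detected on each, so a miRNA called detected could lie under it. Signals of different miRNAs cannot be compared as amounts, because probes differ in their response. In bulk kidney RNA, fewer cells of a type and less RNA per cell cannot be told apart.

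The 5p arms of 3 hairpin families of the cluster, miR-322-5p, miR-450a-5p and miR-503-5p, were tested, and each was called modestly higher in db/db kidneys. miR-322-5p was 1.29-fold, miR-450a-5p 1.23-fold and miR-503-5p 1.46-fold higher than in controls. miR-503-5p is the least secure of the 3, since it entered the test through the db/db group and missed the threshold with no filter. Both arms of miR-542 were also brighter on every db/db array than on any control array, but near the detection limit. The other 4 members, miR-322-3p, miR-503-3p, miR-351-5p and miR-450b-5p, had mean signals at or near the floor. Among all 316 tested miRNAs, 41.8% passed the threshold in either direction, and 24.4% were called higher in db/db kidneys (limma, adjusted p under 0.05 by Benjamini-Hochberg). Read against those shares, the call of any single member was a common event on these arrays.

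**Figure D1:**
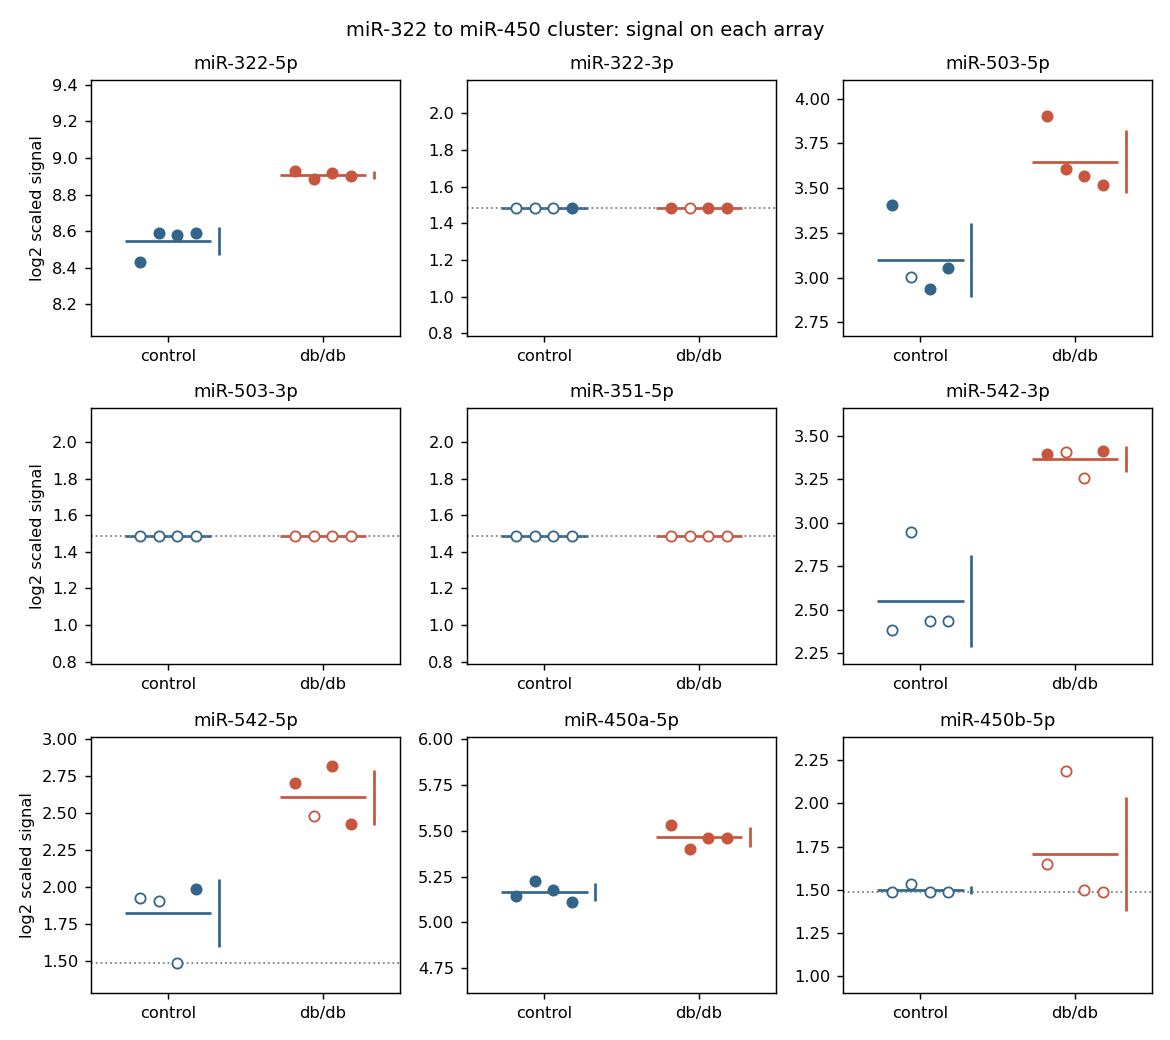
Scaled signal (log2) of the 9 members on each of the 8 arrays, 1 panel per member, with control and db/db arrays side by side. Filled points were called detected and open points were not, lines are group means with vertical bars of 1 SD (n = 4), and the dotted line is the floor of 1.48. The groups stand apart for miR-322-5p, miR-450a-5p, miR-503-5p and both arms of miR-542, and miR-322-3p, miR-503-3p and miR-351-5p lie on the floor on all 8 arrays.

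miR-322-5p had the most secure signal of the cluster, with all 30 of its spots well above background on every array. Its scaled signal was 345, 385, 383 and 385 on the 4 control arrays and 488, 472, 484 and 479 on the 4 db/db arrays. All db/db arrays lay above all control arrays, as was the case for 24.7% of the tested miRNAs, and the lowest value was that of control replicate 1. On the log2 scale the mean was 8.55 ± 0.08 in controls and 8.91 ± 0.02 in db/db kidneys (SD, 4 arrays each). The change was 0.36 ± 0.05 (SE), with a 95% interval from 0.25 to 0.47 and an adjusted p of 0.000647 (limma, Benjamini-Hochberg).

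The scaling touches this miRNA directly, because on control arrays 2 and 4 the miRNA that stood at the 75th percentile was miR-322-5p itself. Its value on those 2 arrays is therefore the scaling target, and it had 67 to 71 miRNAs above it on control arrays against 58 to 60 on db/db arrays, among the 269. An alternative added after seeing the data took the percentile without the cluster. The mean of miR-322-5p was then 8.54 ± 0.11 in controls and 8.91 ± 0.03 in db/db kidneys (SD, 4 arrays each). The change was 0.37, with adjusted p = 0.00138 (limma, Benjamini-Hochberg).

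miR-450a-5p comes from the far end of the cluster. Its scaled signal was 35.3, 37.4, 36.2 and 34.6 on the control arrays and 46.3, 42.3, 44.1 and 44.1 on the db/db arrays. The groups did not overlap, and the spread within each was small. The log2 mean was 5.16 ± 0.05 in controls and 5.47 ± 0.05 in db/db kidneys (SD, 4 arrays each). The change was 0.30 ± 0.04 (SE), with a 95% interval from 0.20 to 0.40 and an adjusted p of 0.00114 (limma, Benjamini-Hochberg). Between 28 and 30 of its 30 spots were well above background on each array. With the normexp background correction, however, its change was 0.053 and the call was lost, with adjusted p = 0.244 (limma, Benjamini-Hochberg). That correction adds an offset of 50, which compresses dim signals.

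miR-503-5p was much closer to background. Its scaled signal was 10.6, 8.02, 7.66 and 8.29 on the control arrays and 15.0, 12.2, 11.9 and 11.4 on the db/db arrays. The groups did not overlap, although the brightest control array, replicate 1 at 10.6, lay close to the dimmest db/db array at 11.4. It was called detected on 3 control and 4 db/db arrays, so it entered the test through the db/db group, where it is higher. No more than 6 of its 30 spots on a control array and 13 on a db/db array were well above background. The log2 mean was 3.1 ± 0.21 in controls and 3.65 ± 0.18 in db/db kidneys (SD, 4 arrays each). The change was 0.55 ± 0.12 (SE), with a 95% interval from 0.27 to 0.83 and an adjusted p of 0.00765 (limma, Benjamini-Hochberg). With no filter on dim miRNAs, where all 1881 entered the adjustment and 3.72% were called higher, the adjusted p of miR-503-5p was 0.10 (limma, Benjamini-Hochberg). Of those 1881, 1491 were detected on no array, which lowers that share. With the normexp background correction the change of miR-503-5p was -0.0083, so that the groups were no longer apart.

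The negative control spots, which match no miRNA, averaged 5.31 to 7.40 on the control arrays and 4.94 to 6.18 on the db/db arrays on the same scaled signal. They were thus not brighter in db/db kidneys. The control signals of miR-503-5p exceeded those averages, and the db/db signals did so by more. The miRNAs detected on no array read lower than the negative controls. Their median was -3.02 to -1.83 on the control arrays and -3.16 to -1.80 on the db/db arrays. Subtracting the negative controls thus takes off more than undetected miRNAs read, and which level is the background of a miRNA probe was not settled. Subtracting each array's negative control mean, an alternative added after seeing the data, gave miR-503-5p a change of 1.15 with adjusted p = 0.0048 (limma, Benjamini-Hochberg). The size of its change thus depended on the treatment of the background and, with normexp, on an offset of 50 that compresses dim signals. The change was -0.0083 with normexp, 0.55 as reported and 1.15 with the subtraction of negative controls.

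miR-542-3p, known to target the messenger of survivin, lies between the miR-351 and miR-450 hairpins. Its scaled signal was 5.22, 7.71, 5.41 and 5.41 on the control arrays and 10.5, 10.6, 9.57 and 10.7 on the db/db arrays. The groups did not overlap, and 3 of the 4 control values fell within the range of the negative control averages, with the 7.71 of replicate 2 just above it. It was called detected on no control array and on 2 db/db arrays, so it was not among the tested miRNAs. The log2 mean was 2.55 ± 0.27 in controls and 3.37 ± 0.07 in db/db kidneys (SD, 4 arrays each). The difference of these means is a 1.76-fold higher signal in db/db kidneys. No control array gave a detection call, so this fold rests on control signals near background. In the fit without a filter the change was 0.82 ± 0.14 (SE), with a 95% interval from 0.48 to 1.15 and an adjusted p of 0.0271 (limma, Benjamini-Hochberg).

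The other arm, miR-542-5p, was dimmer still. Its scaled signal was 3.80, 3.74, 2.51 and 3.96 on the control arrays, the 2.51 of replicate 3 lying under the floor, and 6.50, 5.57, 7.04 and 5.36 on the db/db arrays. Again every db/db array lay above every control array, but the control values lay under the range of the negative control averages over all arrays and the db/db values within it. It was called detected on 1 control and 3 db/db arrays. The log2 mean was 1.83 ± 0.23 in controls and 2.61 ± 0.18 in db/db kidneys (SD, 4 arrays each). In the fit without a filter the change was 0.78 ± 0.15 (SE), with a 95% interval from 0.42 to 1.14 and an adjusted p of 0.0387 (limma, Benjamini-Hochberg). Among the 1565 miRNAs that were not tested, 1.53% had every db/db array above every control array, and both arms of miR-542 were among those 24. That share is low in part because 1491 of the 1565 were detected on no array. Any at the floor on all 8 arrays tie and could not separate. How common such a separation is among untested miRNAs with some detection call was not counted.

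**Figure D2:**
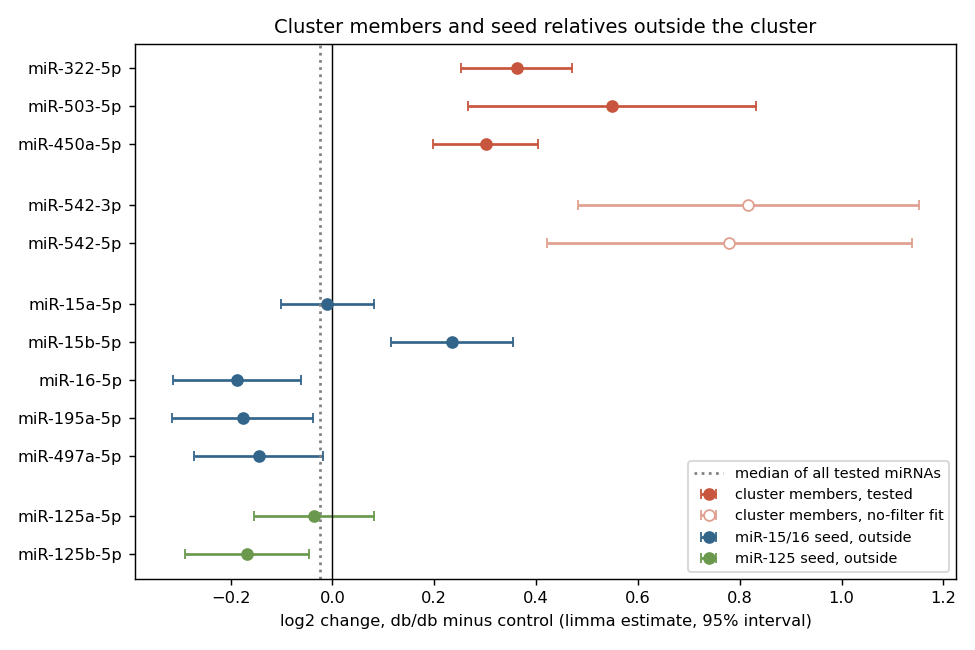
Log2 change (db/db minus control) of the 3 tested members, both arms of miR-542 and, below them, of miRNAs outside the cluster with the miR-15/16 or the miR-125 seed, with 95% intervals from limma. Filled points come from the fit of the 316 tested miRNAs and open points, for the arms of miR-542, from the fit without a filter, and the dotted line is the median of all tested miRNAs, -0.02. The intervals of the 5 members shown lie above 0, from 0.20 to 0.40 for miR-450a-5p up to 0.48 to 1.15 for miR-542-3p. Among the relatives, the interval of miR-15b-5p lies above 0, those of miR-15a-5p and miR-125a-5p span it and the others lie below it.

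The remaining 4 members gave little signal. miR-503-3p and miR-351-5p, whose seed is that of miR-125, were called detected on no array and lay at the floor on all 8. miR-450b-5p was also detected on no array, and it lay at the floor on 3 control arrays and 1 db/db array. miR-322-3p was called detected on 1 control and 3 db/db arrays, yet its mean over probes was at the floor on all 8, because 3 of its 4 probes were under the floor on every array. Its longest probe, which matches 14 bases, gave 11.1 to 11.2 on the control arrays and 10.9 to 14.6 on the db/db arrays, above the negative control averages on every array, and the ranges of the groups overlap. For these 4 members no fold is given. In the fit without a filter miR-450b-5p had a change of 0.21, with a 95% interval from -0.19 to 0.61, and the other 3, at the floor throughout, have no change to fit.

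Each miRNA on this array is read by probes that match different numbers of its bases, which gives a check within the member. The probes of miR-322-5p that match 21 and 22 bases gave log2 changes of 0.36 and 0.37. For miR-450a-5p the probes of 19 and 20 bases gave 0.28 and 0.31. For these members the choice of probe thus made little difference. The probes of miR-503-5p did not give the same size. The one matching 16 bases read 14.0 to 18.6 in controls and 18.6 to 24.2 in db/db kidneys, a change of 0.42. The one matching 15 bases lay under the floor in controls, at 1.30 to 2.54, and read 4.25 to 5.82 in db/db kidneys, a change of 0.79 against the floor.

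For miR-542-3p the probes of 21 and 22 bases gave changes of 0.88 and 0.77. For miR-542-5p the probes of 18 and 19 bases gave 0.67 and 0.68, the one of 17 bases gave 0.23 with overlapping groups, and the one of 16 bases lay at the floor. Some probes of members at the floor also read higher in db/db kidneys. The 16-base probe of miR-351-5p read 0.985 to 3.70 in controls and 3.90 to 5.77 in db/db kidneys, and the 22-base probe of miR-450b-5p read -1.88 to 3.26 and 4.19 to 7.84. Signals of these probes of miR-351-5p and miR-450b-5p lay near or under the range of the negative controls. As to other miRNAs that a probe could bind, the closest mature sequence outside the cluster differed from the probes of miR-322-5p by at least 5 bases (miR-15b-5p). It differed by 4 bases for miR-503-5p (miR-147-5p).

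**Figure D3:**
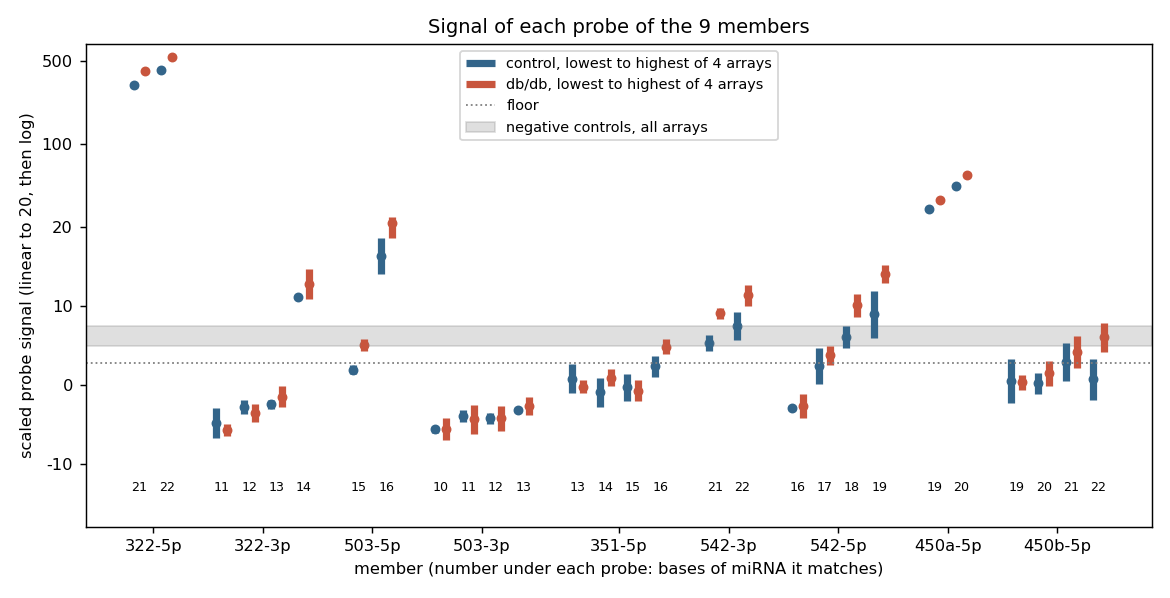
Scaled signal of each probe of the 9 members, on an axis that is linear up to 20 and logarithmic above. Bars run from the lowest to the highest of the 4 arrays of a group, dots mark the mid-point, the number under each probe is the number of bases it matches, and the grey band is the range of the negative control averages. The bars of the groups are separate for all probes of miR-322-5p, miR-450a-5p and miR-542-3p, and most probes of the 4 dim members lie in or under the grey band.

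The changes of the 3 tested members were next compared with one another within arrays, in comparisons added after seeing the data, and none of the 3 pairs passed the test. The difference of log2 signals between miR-503-5p and miR-322-5p was 0.19 ± 0.16 (SE) higher in db/db kidneys, with an interval from -0.36 to 0.62, the range over all pairs of a db/db and a control array, and p = 0.314 (exact permutation test, 2-sided; also 0.314 after Benjamini-Hochberg adjustment over 3 comparisons). For miR-450a-5p against miR-322-5p it was 0.06 ± 0.04 lower (-0.06), with an interval from -0.19 to 0.08 and p = 0.257 (exact permutation test, 2-sided; 0.314 after adjustment). For miR-503-5p against miR-450a-5p it was 0.25 ± 0.14 higher, with an interval from -0.21 to 0.61 and p = 0.143 (exact permutation test, 2-sided; 0.314 after adjustment). Unequal changes of the sizes in those intervals cannot be told from equal ones. The intervals are wide where miR-503-5p takes part and narrow for miR-450a-5p against miR-322-5p.

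miR-16-5p carries the seed of miR-322-5p but is encoded outside the cluster, and it was called lower, a call that depended on the scaling. It is among the most abundant miRNAs of most tissues. Its log2 mean was 11.24 ± 0.07 in controls and 11.05 ± 0.07 in db/db kidneys (SD, 4 arrays each), a change of -0.19 ± 0.05 (SE) with adjusted p = 0.0236 (limma, Benjamini-Hochberg). The call was lost without scaling (adjusted p = 0.529), with scaling to the labelling spike-ins (0.866), with the percentile over all miRNAs (0.962) and with no filter (0.135), also in limma. The log2 signal of miR-322-5p minus that of miR-16-5p was -2.89, -2.69, -2.59 and -2.61 on the control arrays and -2.12, -2.25, -2.04 and -2.17 on the db/db arrays. The groups did not overlap. Only the shift between groups can be read from such a difference, and it does not depend on how arrays are scaled to one another. The shift was 0.55 ± 0.08 (SE), with a 97.1% interval from 0.34 to 0.85 and p = 0.0286 (exact permutation test, 2-sided), the smallest that the 70 assignments of the arrays allow. Every db/db array already lay above every control array for miR-322-5p and below every one for miR-16-5p. Both changes were known before the test, so its outcome was fixed in advance and this p adds no support.

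**Figure D4:**
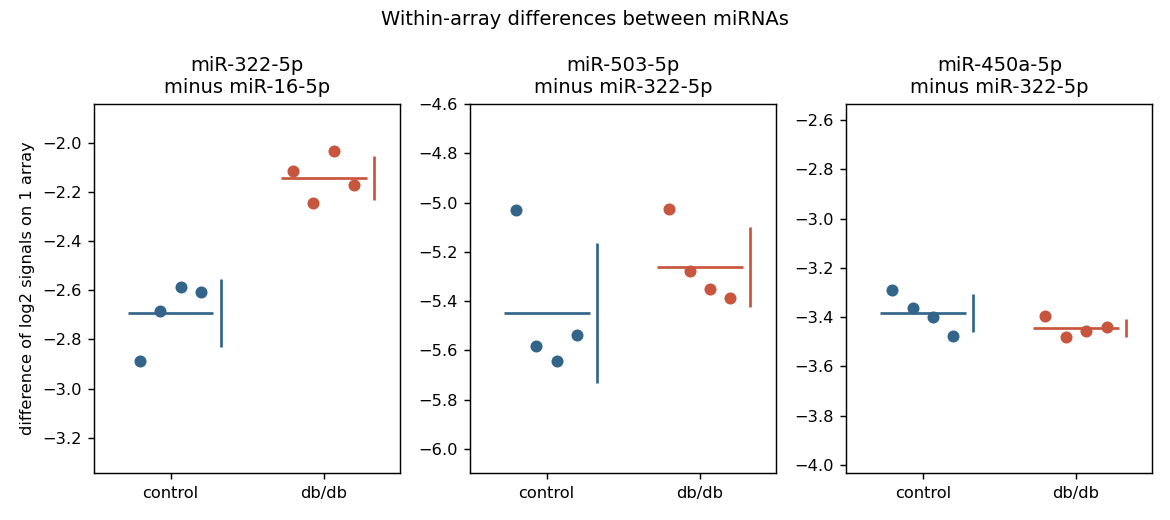
Differences of log2 signal between pairs of miRNAs on the same array, for control and db/db arrays, with each group's mean and SD (n = 4). miR-322-5p minus miR-16-5p stood at -2.89 to -2.59 on control arrays and at -2.25 to -2.04 on db/db arrays, while the groups overlap for miR-503-5p minus miR-322-5p and for miR-450a-5p minus miR-322-5p.

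The other carriers of the seed did not move together. The list used for the miR-15/16 family held 9 miRNAs outside the cluster, of which 5 were tested, and 4, miR-6342, miR-6353, miR-6419 and miR-1907, were detected on no array. miR-1907 had no RefSeq sequence to match, so its seed was not checked, and miR-195b, which carries the seed in RefSeq but is not in the list, was also detected on none. Of the 5, 1 was called higher and 2 lower, beside 24.4% and 17.4% of all tested miRNAs, and the median change was -0.14, against -0.02 for all. These counts were not stable: 1 was called higher and 0 lower without scaling, with the spike-ins and with no filter, and 0 higher and 3 lower without db/db replicate 2. miR-15b-5p rose from 9.09 ± 0.04 to 9.32 ± 0.09 on the log2 scale (SD, 4 arrays each), by 0.24 ± 0.05 (SE), with adjusted p = 0.0073 (limma, Benjamini-Hochberg). miR-195a-5p fell by 0.18 with adjusted p = 0.0467 in the same limma fit, although its groups overlapped. That call was lost or turned under 14 of 22 alternatives, among them 6 of the 8 that leave out an array (adjusted p up to 0.119, limma), quantile normalization (0.559) and no filter (0.27). miR-497a-5p had a change of -0.14 (adjusted p = 0.0654) and miR-15a-5p one of -0.01 (adjusted p = 0.846), both by limma with Benjamini-Hochberg.

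Changing the scaling factor of each array shifted all miRNAs by nearly the same amount. Without scaling, the median of all tested miRNAs moved from -0.02 to 0.10, and with scaling to the labelling spike-ins to 0.15. miR-16-5p then stood at -0.06 and -0.01, which is 0.16 under that median under both of them and as reported. Relative to the same median, miR-322-5p was 0.39, miR-503-5p 0.57 and miR-450a-5p 0.32 higher as reported, without scaling and with the spike-ins. These equal values follow from such scaling and are not a separate check. Under quantile normalization the corresponding values were 0.44, 0.47 and 0.39. With normexp they were 0.38, 0.059 and 0.12, and with the negative control mean subtracted 0.36, 1.14 and 0.37. Higher calls made up 58.3% of all calls as reported, 78.1% without scaling, 83.1% with the spike-ins and 46.9% under quantile normalization.

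The call of miR-16-5p was lost when control replicate 2 or either of db/db replicates 1 and 3 was left out, with changes between -0.27 and -0.16 over all arrays left out in turn and adjusted p up to 0.0592 in limma. The call of miR-15b-5p was lost without db/db replicate 2 (adjusted p = 0.0568, limma), with the percentile over all miRNAs and in the authors' deposited table. The shift of miR-322-5p against miR-16-5p lay between 0.48 and 0.60 over its 15 alternatives. With the gene total signal, the authors' deposited table and the replicate block it was 0.55, the same as reported, so these are not separate checks.

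miR-351-5p and miR-125 share a seed too, but miR-351-5p was at the floor, so their changes could not be set against each other. miR-125b-5p, an abundant miRNA of many tissues, fell by 0.17 ± 0.05 (SE) with adjusted p = 0.0359 (limma, Benjamini-Hochberg), and that call was lost or turned under 10 of 22 alternatives, among them no scaling, the spike-ins, no filter and the removal of any 1 of 4 arrays, replicates 2 and 4 of the controls and 3 and 4 of db/db. miR-125a-5p had a change of -0.04 (adjusted p = 0.577, limma, Benjamini-Hochberg).

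Other arms of the same hairpins, miR-351-3p, miR-450a-1-3p, miR-450a-2-3p and miR-450b-3p, were detected on no array. The array's own annotation places the probes of 13 other tested miRNAs on the X chromosome only. A miRNA with no position there, or with one on another chromosome too, was not counted. Among the 13, 3 were called higher, 1 lower and 9 neither, with a median change of 0.04. Among all tested miRNAs 24.4% were called higher and 17.4% lower. The 3 were miR-504-3p, detected on no control array and on all 4 db/db arrays, miR-500-3p and miR-652-3p. miR-500-3p changed by 0.38 (adjusted p = 0.000922) and miR-652-3p by 0.25 (adjusted p = 0.00184), both by limma with Benjamini-Hochberg. The miRNA called lower was miR-223-3p of myeloid cells, with a change of -0.83 (adjusted p = 0.00032, same limma fit).

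Likeness to miR-322-5p was measured as the root mean square difference of log2 profiles over the 8 arrays, each profile centred on its own mean. Of 268 other miRNAs detected on all arrays, the closest were miR-30a-3p at 0.041, miR-139-5p at 0.050 and miR-500-3p at 0.050, against a median of 0.23. miR-450a-5p was at rank 7, with 0.060. It was the only other member detected on all 8 arrays and so the only one ranked. These profiles keep the difference between the groups, so miRNAs with a similar change come out as alike. The 3 closest changed by 0.30, 0.37 and 0.38 and miR-450a-5p by 0.30, beside 0.36 for miR-322-5p. The ranks are thus not separate from the changes given above.

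Markers of several cell types moved with genotype beside these changes. The summed scaled signal of 6 leukocyte miRNAs was 602 to 776 in controls and 254 to 365 in db/db kidneys, and 5 of them were called lower, all but miR-155-5p. The sum of 3 stromal miRNAs was 940 to 1146 against 753 to 815, with all 3 called lower. The hepatocyte miRNA miR-122-5p was detected on no control array and on all 4 db/db arrays, at scaled signals of 50.2 to 133. Of 4 kidney tubule miRNAs, detected on every array, miR-204-5p and miR-30a-5p were called higher, and the sum was 10340 to 10860 against 11400 to 11810. Of 3 striated muscle miRNAs only miR-1a-3p was tested and was called higher, while miR-133a-3p and miR-206-3p were detected on no array, with a sum of 18.5 to 25.8 against 23.7 to 32.7.

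The 2 endothelial miRNAs, 3913 to 4194 in sum against 3648 to 3807, were not called. Neither were the 2 of smooth muscle and pericytes, 452 to 519 against 452 to 508, nor the 2 erythroid ones, 703 to 3058 against 646 to 3564. The part of these cell types in the changes of the cluster was not tested.

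**Figure D5:**
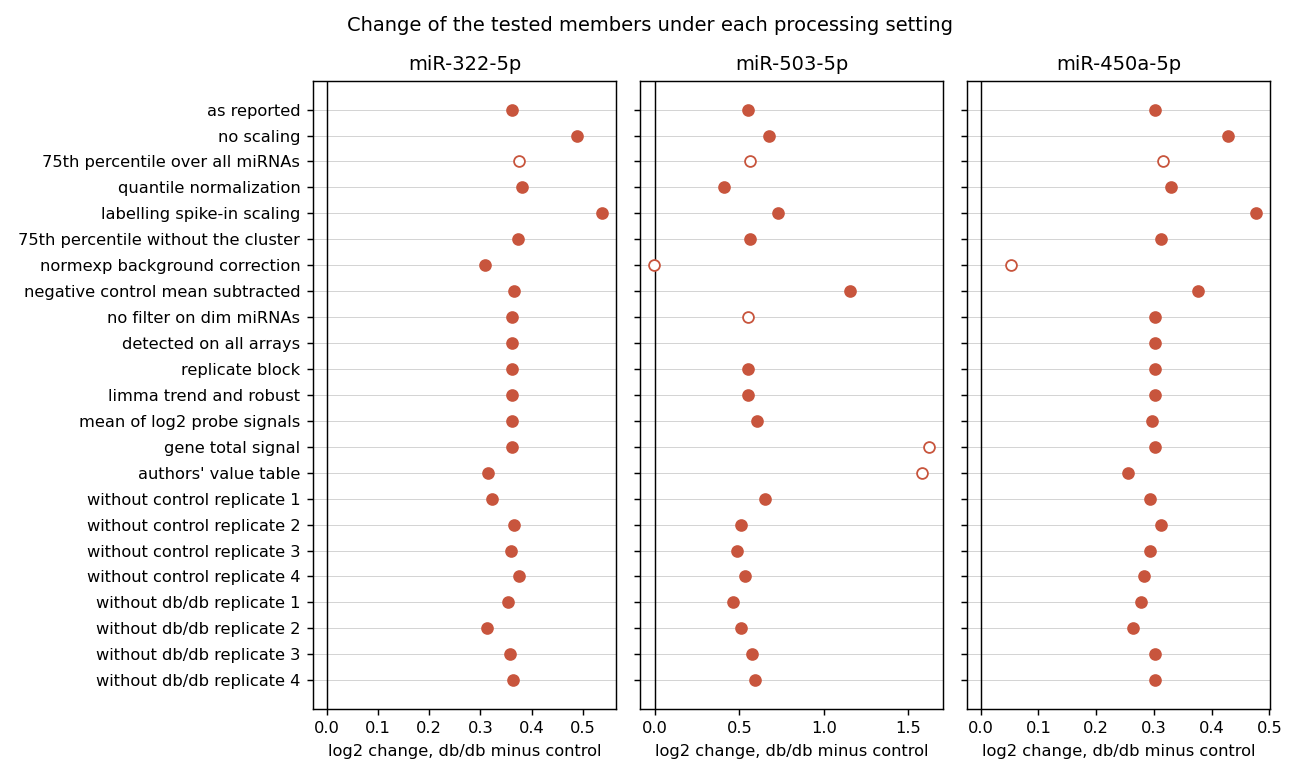
Log2 change (db/db minus control) of miR-322-5p, miR-503-5p and miR-450a-5p as reported and under each other processing setting. Filled points have an adjusted p under 0.05 in limma and open points do not, and miR-503-5p has no point for the set detected on all arrays. miR-322-5p stayed above 0.3 in every setting shown, while miR-503-5p ranged from -0.0083 to 1.63.

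The call of miR-322-5p held under 21 of its 22 alternatives, that of miR-450a-5p under 20 of 22 and that of miR-503-5p under 16 of 21. Leaving out each array in turn moved miR-322-5p between 0.31 and 0.38, miR-450a-5p between 0.26 and 0.31 and miR-503-5p between 0.46 and 0.65. The highest adjusted p among these fits was 0.00691 for miR-322-5p, 0.00539 for miR-450a-5p and 0.0278 for miR-503-5p (limma, Benjamini-Hochberg). With the percentile taken over all miRNAs, 0 of the 3 were called. In the authors' deposited table the change was 1.58 for miR-503-5p, where control replicate 2, undetected, holds 0.0286 and the other controls 0.807 to 0.996.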

How the data were processed

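Total RNA of 8 kidney samples was measured on single-colour Agilent arrays with 58594 spots, 56430 of them in 4415 probes of 1881 mouse miRNAs. Spot intensity values in the deposited scanner files come from Agilent Feature Extraction 12.0.3.1, with spatial detrending on and background correction off, per the file headers. None of the miRNA spots was saturated. The authors also deposited a linear ratio for each miRNA, 1 column per array, with column medians of 0.857 to 1.11. Over 269 miRNAs its log2 change had a correlation of 1 with that of the gene total signal and lay 0.17 lower, so higher means more signal, while how the divisors were chosen is not stated in the labels or headers. That set of values served as an alternative.

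Processed signals, without outlier spots, were averaged per probe and then per miRNA, scaled to the 75th percentile over the 269 miRNAs with a detection call on all 8 arrays, floored at 2.80 and taken to log2. The fit took the 316 miRNAs detected throughout 1 group or both (4 arrays) and used limma 3.58.1 in R 4.3.3 (tables read with version 1.17.8 of data.table), with calls made at an adjusted p under 0.05 (Benjamini-Hochberg, 2-sided). Differences within an array were compared by exact permutation over the 70 possible assignments. The number of arrays limits the precision.

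The members and lists were chosen with earlier results of these data known. The text names every member, the listed relatives, other X-linked miRNAs that were called, marker miRNAs and the 3 miRNAs most like miR-322-5p. Alternatives changed the scaling, background correction, filter, summary, fit, replicate block and the arrays included. Same-numbered samples were not paired. The steps were tested on simulated data. A planned comparison of the arms of a hairpin gave no value for the cluster, since of 35 hairpins with both arms tested 0 belonged to it.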

Additional observations from a re-analysis of the deposited data

Results flagged for a closer look

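Dixon's test for a value far from the others of its group was applied to 32 groups of 4 arrays, and 5 values passed it, where chance gives about 1 in 20 groups. miR-322-5p on control replicate 1 stood at 8.43 on the log2 scale, below the other controls, 2 of which equal the scaling target. miR-542-3p stood at 2.95 on control replicate 2, above the other controls, and at 3.26 on db/db replicate 3, below the other db/db arrays. miR-542-5p on control replicate 3 was at the floor, 1.48. miR-15a-5p on db/db replicate 2 stood at 11.31, above the other db/db arrays. Each of the 5 values came from a different array. None brought a member's groups into overlap.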

How the results depend on the processing

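With the 75th percentile over all 1881 miRNAs, which before scaling was near background (2.71 to 3.6 in controls, 2.32 to 4.14 in db/db kidneys), 0 members and 34 miRNAs in all were called in limma. The changes were then 0.38 for miR-322-5p (adjusted p = 0.498), 0.56 for miR-503-5p (0.143) and 0.32 for miR-450a-5p (0.684). With normexp, whose offset of 50 compresses dim signals, 1 member was called, miR-322-5p, while miR-503-5p was reversed to -0.0083 (adjusted p = 0.876) and miR-450a-5p was at 0.053 (0.244). miR-503-5p also missed the threshold at 0.55 with no filter (0.10), at 1.63 in the gene total signal and at 1.58 in the authors' deposited table (0.293 each), which fill an undetected control. Without an array, 3 to 4 members and 114 to 153 miRNAs were called. The added member was miR-542-5p, which entered the test without db/db replicate 2. miR-15a-5p turned above 0 without scaling (0.12), with the percentile over all (0.0043) or without the cluster (0.0018), with the spike-ins (0.17), with normexp (0.0053) and without control replicate 2 (-0.085 to 0.00012 over the arrays left out). miR-125a-5p turned without scaling (0.091) and with the spike-ins (0.14), where miR-195a-5p (0.00055), miR-497a-5p (0.032) and miR-125b-5p (0.0095) also lay above 0. Same-numbered samples did not deviate together (correlations of -0.43, 0.41, -0.05 and -0.07), so the replicate numbers give no pairing. With the replicate block 3 members and 144 miRNAs were called, with adjusted p of 0.0084, 0.011 and 0.0032 for miR-322-5p, miR-450a-5p and miR-503-5p, miR-497a-5p was gained (-0.14, adjusted p = 0.0264) and miR-125b-5p lost (0.0516).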
